A study of Mus musculus with 2 samples.

Results

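The small redox selenoproteins and the methionine sulfoxide reductases were described as 7 genes, taken by their symbols from the 32285 genes of the deposited count tables, and all 7 were found there. Selenow, Selenoh, Selenop, Selenoo and Msrb1 encode selenoproteins, which carry the amino acid selenocysteine, and Msra and Msrb2 encode methionine sulfoxide reductases that do their chemistry without selenium. Single-cell RNA sequencing was done on 1 library from Trsp f/f:Mx1-Cre mice (Trsp knockout) and 1 library from Trsp f/f mice (control). Both groups were C57BL/6 mice with the floxed Trsp allele, and both had received 3 injections of 500 µg of pI-pC, a double-stranded RNA that switches on the interferon-inducible Mx1-Cre. The series record dates the injections by 7 weeks after birth, without making the age quite clear, and the samples by 9 weeks after the last injection. Bone marrow cells of femora and tibiae that were Lineage- and cKit+ had been frozen and thawed. Mx1-Cre acts in any cell that answers interferon, so it is not specific to blood cells. The sources used here do not give the number of mice per library.

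Selenocysteine is inserted at a UGA codon, which otherwise stops translation, with a dedicated tRNA that the gene Trsp encodes, and a hairpin in the 3′ untranslated region of the mRNA marks the codon for this reading. An mRNA with a stop codon well ahead of its last exon junction can be a target of nonsense-mediated decay, and several selenoprotein mRNAs are known to follow this route when selenium is scarce. Oxidants turn methionine into methionine sulfoxide in an S and an R form, and Msra reduces the S form while the Msrb enzymes reduce the R form, with electrons from thioredoxin.

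The reference transcripts show where the selenocysteine codon lies, which is the feature that sets the 5 selenoprotein genes apart from Msra and Msrb2. Each stretch below is read 5′ to 3′ from mm10 with the GENCODE vM21 annotation, is kept within the codon's exon, and has the selenocysteine codon in capitals. That of Msrb2 is the stretch aligned with Msrb1 and has the aligned cysteine codon in capitals.
Selenow, chr7:15920449-15920473, minus strand: tggagctTGAggctataagcccaag
Selenoh, chr2:84670357-84670390, minus strand: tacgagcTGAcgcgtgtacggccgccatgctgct
Selenop, chr15:3274824-3274874, plus strand: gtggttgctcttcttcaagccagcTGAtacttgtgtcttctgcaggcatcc
Selenoo, chr15:89099951-89099983, plus strand: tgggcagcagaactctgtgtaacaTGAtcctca
Msrb1, chr17:24740134-24740184, plus strand: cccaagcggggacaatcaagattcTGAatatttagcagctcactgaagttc
Msrb2, chr2:19394287-19394337, plus strand: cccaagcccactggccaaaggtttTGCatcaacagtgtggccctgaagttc

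The stretch of Selenow is the whole exon 2 of 6, and its codon is number 13 of 88. In Selenoh the codon is number 38 of 116, in exon 2 of 3. Selenop has 10 selenocysteine codons, the first at codon 59 of 380 in exon 2 of 5 and the other 9 in exon 5. In Msrb1 the codon is number 95 of 116, in exon 3 of 4, and in Selenoo it is number 665 of 667, in the last exon of 9. The distance from the first such codon to the last exon junction is 243 bases in Selenow, 136 in Selenoh, 357 in Selenop and 34 in Msrb1. Over the annotated transcripts that hold the codon it is 108 to 266 bases in 5 transcripts of Selenoh, 26 to 357 in 6 of Selenop and 34 to 66 in 2 of Msrb1. Selenow, Selenoh and Selenoo also have a cysteine codon 3 codons before it, the pattern of a redox-active pair. The translations of Msrb1 and Msrb2 shared 38 of 96 aligned positions (39.6%), and codon 162 of Msrb2, a cysteine codon, aligned with codon 95 of Msrb1.

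Unique molecular identifiers (UMIs), which count captured mRNA molecules, numbered 152092210 over 11556 barcodes of the knockout library and 184683653 over 14372 barcodes of the control library. Filtering left 6640 knockout cells, with a median depth of 20744 UMIs, and 8046 control cells, with a median depth of 20352 UMIs. Both libraries had 39 barcode sequences in common. The median share of mitochondrial UMIs was 4.62% in kept knockout cells and 3.78% in kept control cells. Cells were grouped into 25 clusters, 21 of which took the name of a marker class. The multipotent or lymphoid-primed progenitor class, of 816 knockout and 805 control cells, is less firmly named. A cluster with 447 and 450 of these cells was named by mean marker level. It had 1 marker of the class, Dntt, among its 25 leading genes. An unnamed cluster of few UMIs, led by Rpgrip1, held 1293 knockout and 156 control cells. Levels are counts-per-million (CPM), the UMIs of a gene scaled to all UMIs of the same cells. They count 3′ ends rather than transcript length and are compared between cells, not between genes. With 1 library per genotype no difference was tested, and every interval is an exact 95% interval for counting error only. Trsp, a tRNA gene, was not analysed here.

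Over all kept cells Selenow, Selenoh and Selenop were lower in the knockout library, by 6.69-fold, 10.2-fold and 3.33-fold, while Msrb1 was 1.36-fold lower and Selenoo, Msra and Msrb2 lay close to their control levels. Of the 7 genes, 5 passed the floor of 20 CPM in 1 library and 50 UMIs over both, and Selenoo and Msrb2 did not. Of these 5, the knockout library had 3 at least 1.5-fold below the control and 0 at least 1.5-fold above it. Among all 6096 genes that passed the floor, 37 (0.607%) were at least 1.5-fold lower and 62 (1.02%) at least 1.5-fold higher. The median log2 ratio of knockout over control was −1.73 over the 5 selenoprotein genes and 0.08 over all genes past the floor. Sums over all kept cells mix classes whose cell numbers differ, as with 865 knockout and 1563 control neutrophil progenitor-like cells. Over the 7 classes compared below, the median log2 ratio was −3.09 for Selenow, −3.26 for Selenoh, −1.82 for Selenop and −0.32 for Msrb1.

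Selenow, a small protein with a thioredoxin-like fold, had 2032 UMIs in knockout cells (14.7 CPM, 14.1 to 15.3) and 16353 in control cells (98.2 CPM, 96.7 to 99.8). The log2 ratio was −2.74 (−2.81 to −2.67). In the control library its level depended on the cell class. It was 209 CPM in early erythroid-like, 195 in dendritic cell-like, 189 in mature B or plasma (B/plasma)-like, 189 in hematopoietic stem cell (HSC)-like and 186 in T, natural killer or innate lymphoid (T/NK/ILC)-like cells, and the intervals of neighbours in this order overlapped. It was 140 CPM in cells of the multipotent or lymphoid-primed progenitor class (MPP/LMPP-like) and 135 in basophil or mast cell-like cells, then 99.2 in eosinophil-like cells, 76.0 in monocyte progenitor-like cells, 60.4 in neutrophil progenitor-like and 42.0 in maturing neutrophil-like cells, each of these last 4 apart from the one before. In the knockout library Selenow stood at 20.1 CPM in HSC-like cells, 7.64 in neutrophil progenitor-like cells and 3.48 in maturing neutrophil-like cells, from 20 UMIs against 341 in the control. Maturing neutrophil-like cells were the lowest class in both libraries.

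Selenoh, a nuclear protein of the same fold, had 4130 UMIs in knockout cells (29.9 CPM, 29.0 to 30.8) and 50501 in control cells (303 CPM, 301 to 306), a log2 ratio of −3.34 (−3.39 to −3.30). Its order over the control classes was nearly the opposite of that of Selenow. It was 391 CPM in neutrophil progenitor-like and 372 in maturing neutrophil-like cells, with overlapping intervals, 329 in monocyte progenitor-like cells, and 155 in HSC-like cells. T/NK/ILC-like cells, at 143 CPM, overlapped with HSC-like cells, and B/plasma-like cells were the lowest, at 60.4 CPM. In knockout cells the levels spanned 10.4 CPM in T/NK/ILC-like to 36.3 CPM in maturing neutrophil-like cells. Across the 8 named classes with at least 100 control cells, Pearson's r between Selenow and Selenoh on log2(CPM + 1) was −0.92, and these class values share 1 library.

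Selenop, the secreted selenium carrier of plasma, best known from the liver, had 1222 UMIs in knockout cells (8.84 CPM, 8.35 to 9.35) and 4896 in control cells (29.4 CPM, 28.6 to 30.3), a log2 ratio of −1.73 (−1.83 to −1.64). In the control library it was highest in HSC-like cells, at 68.7 CPM, with T/NK/ILC-like cells at 61.6 and MPP/LMPP-like cells at 51.4 and overlapping intervals between neighbours. Maturing neutrophil-like cells had 17.5 CPM and early erythroid-like cells 8.75 CPM. HSC-like cells had 17.6 CPM in the knockout library, from 188 UMIs, against 845 UMIs in the control. Macrophages also make Selenop, and their marker list was checked beside it. The 7 macrophage markers summed to 1.03 CPM in knockout and 1.14 CPM in control HSC-like cells, with C1qb and Vcam1 at 0 UMIs in the knockout and C1qa at 0 in the control. Over all kept cells they summed to 13.6 CPM in knockout and 12.995 CPM in control cells, and to 2.78 and 2.70 CPM without Vcam1, which was high in maturing neutrophil-like cells.

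Selenoo, a mitochondrial pseudokinase that attaches AMP to other proteins, had 1927 UMIs in knockout cells (13.9 CPM) and 2071 in control cells (12.4 CPM). Its log2 ratio was 0.16 (0.07 to 0.25), in the opposite direction from the 4 other selenoprotein genes. The median of all genes past the floor, 0.08, lay within this interval. In control cells it was 16.8 CPM in basophil or mast cell-like cells and 9.73 in maturing neutrophil-like cells, and all neighbours in the order of the 11 described classes overlapped.

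Msrb1, the selenocysteine form of the Msrb enzymes, in the cytosol and nucleus, had 15041 UMIs in knockout cells (109 CPM, 107 to 111) and 24562 in control cells (148 CPM, 146 to 149), a log2 ratio of −0.44 (−0.47 to −0.41). It had the widest span of the 7 genes over the 7 compared control classes, 8.65-fold, with 348 CPM in maturing neutrophil-like, 239 in neutrophil progenitor-like, 141 in monocyte progenitor-like and 40.3 in HSC-like cells. The knockout levels kept this span, with 262 CPM in maturing neutrophil-like, 185 in neutrophil progenitor-like, 115 in monocyte progenitor-like cells and 29.4 in HSC-like cells. Between the first 5 classes of the order, from maturing neutrophil-like to basophil or mast cell-like, no intervals of neighbours overlapped in either library.

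Msra had 6212 UMIs in knockout cells (44.9 CPM, 43.8 to 46.1) and 7931 in control cells (47.6 CPM, 46.6 to 48.7), a log2 ratio of −0.08 (−0.13 to −0.04). In control cells it was 56.9 CPM in MPP/LMPP-like cells, apart from neutrophil progenitor-like cells at 50.7 CPM, and 22.8 CPM in dendritic cell-like cells. Early erythroid-like cells, at 10.4 CPM, and B/plasma-like cells, at 9.96 CPM, were the lowest and overlapped. Msrb2, a mitochondrial enzyme, had 2068 UMIs in knockout cells (14.96 CPM) and 2671 in control cells (16.0 CPM), a log2 ratio of −0.10 (−0.19 to −0.02). HSC-like cells had its highest control level, 26.4 CPM, and dendritic cell-like cells the lowest, 4.29 CPM from 10 UMIs, each with an interval that overlapped that of the class next in order. Across the 8 control classes r was 0.77 between Msra and Msrb2.

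**Figure D1:**
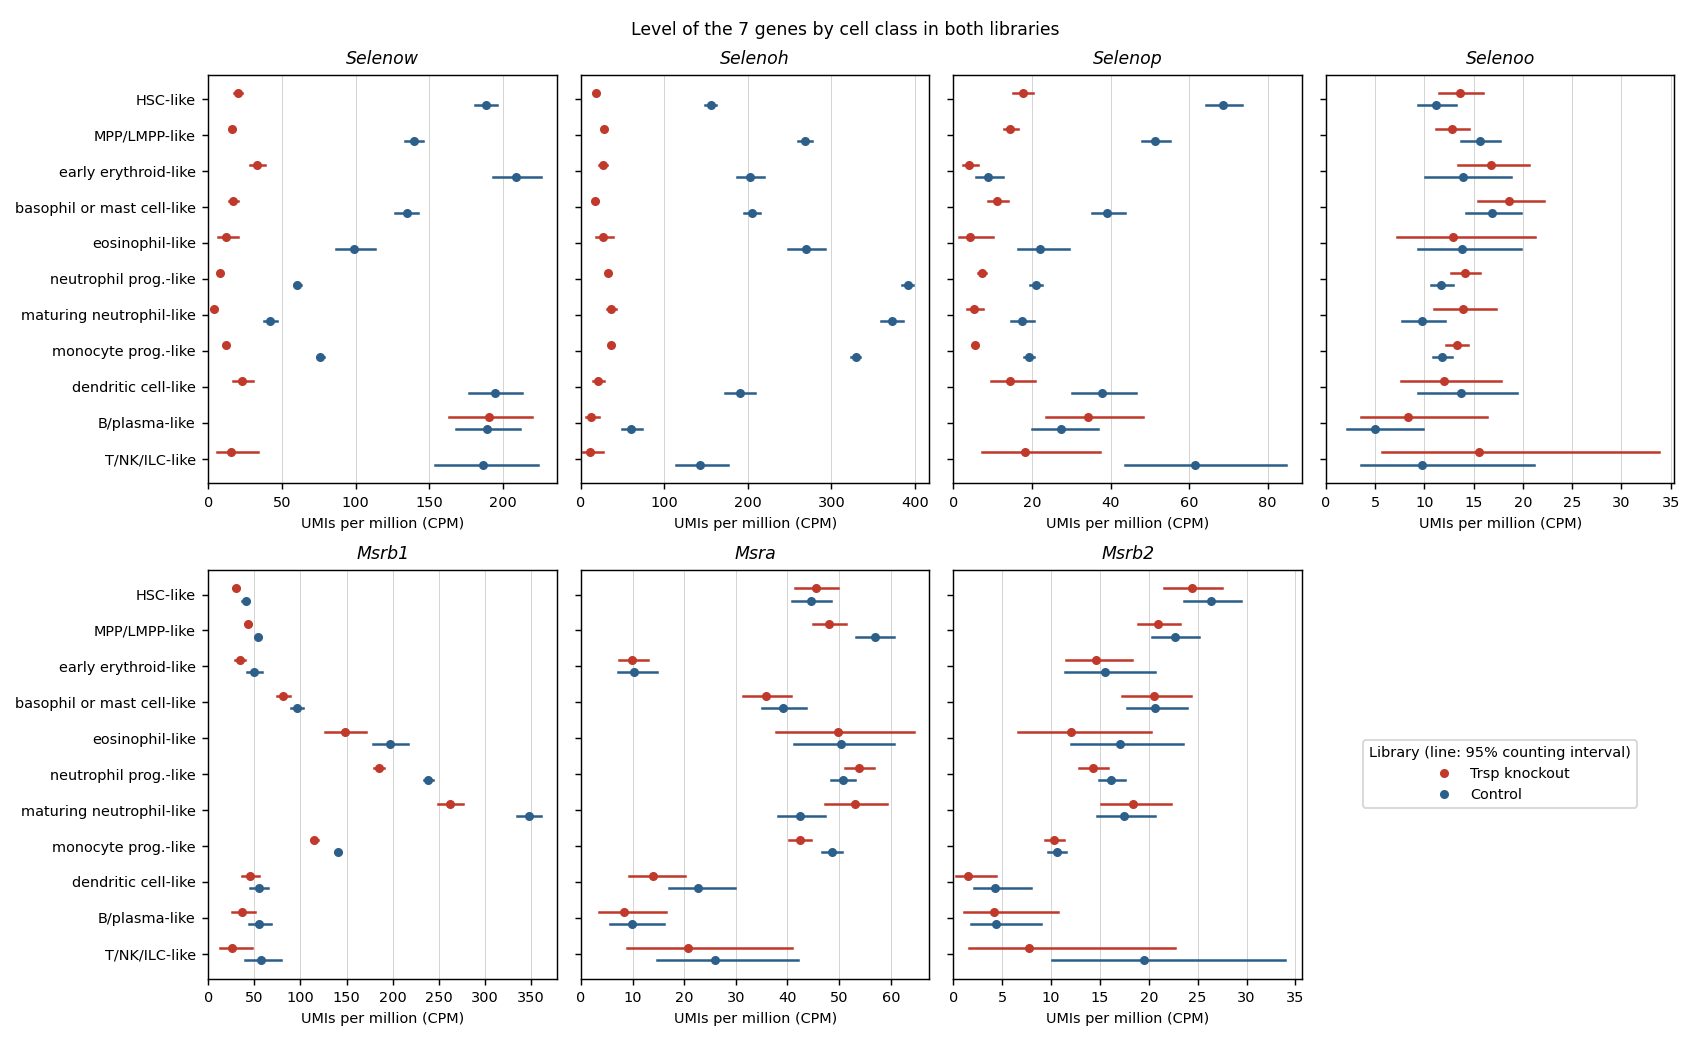
Level of each of the 7 genes, in CPM on a linear axis that starts at 0 and differs between genes, in 11 cell classes of the knockout (red) and control (blue) library. Points are sums over the cells of a class and lines are exact 95% counting intervals. Selenow in B/plasma-like cells stands at 190 CPM in the knockout and 189 CPM in the control library, unlike in the other classes.

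Ratios were compared in the 7 classes that kept 100 or more cells of both libraries. Selenow, Selenoh and Selenop were at least 1.5-fold lower in knockout cells in all 7 classes, Selenoo and Msrb1 in 0, and Msra and Msrb2 each in 1, dendritic cell-like cells. No gene of the 7 was at least 1.5-fold higher in any of them. The share of all genes past the floor that were at least 1.5-fold lower was 0.488% in HSC-like, 0.761% in MPP/LMPP-like, 0.73% in basophil or mast cell-like, 0.441% in neutrophil progenitor-like, 0.686% in maturing neutrophil-like, 0.534% in monocyte progenitor-like and 2.75% in dendritic cell-like cells. In the same order the share at least 1.5-fold higher was 0.566%, 1.14%, 1.7%, 1.64%, 3.69%, 1.35% and 5.36%. Selenop was under the floor in maturing neutrophil-like and monocyte progenitor-like cells, Selenoo in all 7 classes, and Msrb2 in 4 classes, among them dendritic cell-like cells.

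The log2 ratio of Selenow ran from −3.60 in maturing neutrophil-like cells (−4.32 to −2.95) to −2.68 in monocyte progenitor-like cells (−2.82 to −2.54). That of Selenoh ran from −3.61 in neutrophil progenitor-like cells (−3.71 to −3.51) to −3.15 in HSC-like cells (−3.37 to −2.93), and that of Selenop from −1.96 in HSC-like cells (−2.20 to −1.73) to −1.39 in dendritic cell-like cells (−2.05 to −0.77). Msrb1 lay between −0.45 in HSC-like cells (−0.66 to −0.24) and −0.25 in basophil or mast cell-like cells (−0.41 to −0.09), and its interval was below 0 in 6 classes and spanned 0 in dendritic cell-like cells. The ratio of Msrb1 was thus nearer to 0 than those of Selenow, Selenoh and Selenop in each class. Selenoo ran from −0.29 in MPP/LMPP-like cells to 0.51 in maturing neutrophil-like cells, and 4 of its 7 intervals spanned 0. The interval of Msra spanned 0 in 3 classes, was below 0 in 3 and above 0 in maturing neutrophil-like cells. All 7 intervals of Msrb2 spanned 0, and its −1.52 in dendritic cell-like cells rests on 3 knockout and 10 control UMIs (−4.02 to 0.43). Relative to total UMIs the median of all genes was 0.12 in both neutrophil classes.

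**Figure D2:**
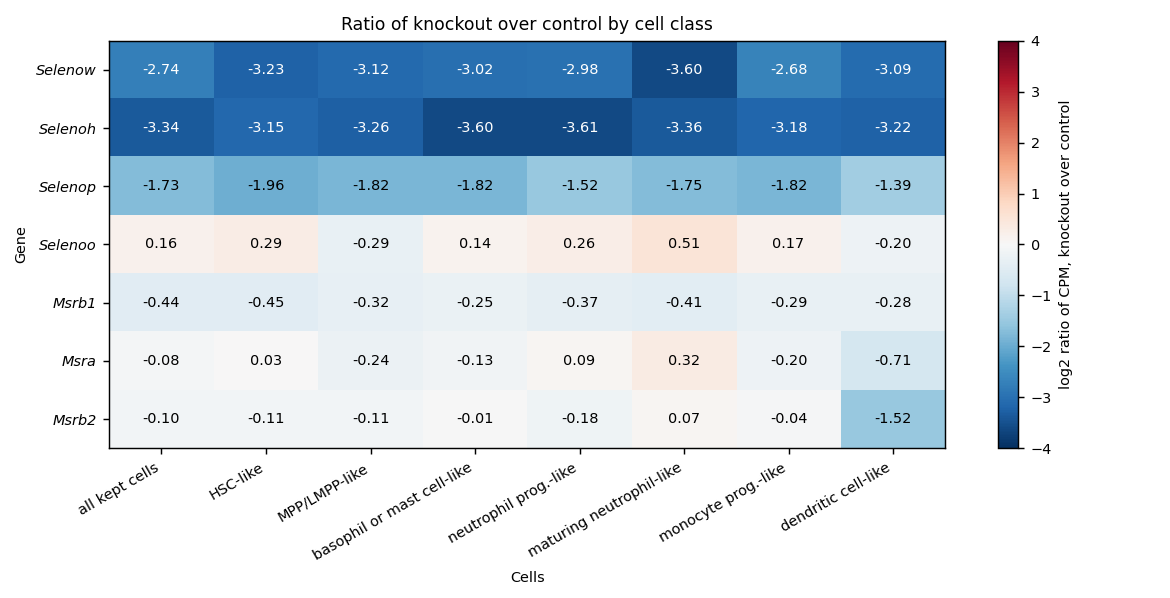
Log2 ratio of CPM, knockout over control, for the 7 genes (rows) over all kept cells and in the 7 compared classes (columns). Blue is lower and red higher in the knockout library. Selenow, Selenoh and Selenop are between −3.61 and −1.39 in every class, and the 4 other genes are nearer to 0, apart from Msrb2 in dendritic cell-like cells.

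Msrb1 and Msrb2, which carry out the same reaction with selenocysteine and with cysteine, could be set side by side in the same cells. In HSC-like cells Msrb1 had 314 knockout and 495 control UMIs, and Msrb2 had 260 knockout and 324 control UMIs, with log2 ratios of −0.45 and −0.11 (−0.35 to 0.13). In neutrophil progenitor-like cells Msrb1 had 4756 knockout and 8872 control UMIs and Msrb2 had 367 knockout and 600 control UMIs, with log2 ratios of −0.37 and −0.18 (−0.37 to 0.01). The intervals of the pair overlapped in both of these classes and in 5 of the 7 compared classes in all. They were apart in monocyte progenitor-like cells, with Msrb1 at −0.29 (−0.34 to −0.24) and Msrb2 at −0.04 (−0.23 to 0.15). They were also apart in maturing neutrophil-like cells, with Msrb1 at −0.41 (−0.50 to −0.32) and Msrb2 at 0.07 (−0.30 to 0.45), and over all kept cells. Msrb2 was under the floor of 20 CPM in both of these classes and over all kept cells. In HSC-like, MPP/LMPP-like and basophil or mast cell-like cells, where both genes passed the floor, the intervals overlapped. Msrb1 had the lower ratio in 6 of the 7 classes, the exception being dendritic cell-like cells.

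The log2 ratios were then set beside the place of the codon shown above. The 3 genes with the first codon over 50 bases before the last exon junction, Selenow, Selenoh and Selenop, had the ratios of −2.74, −3.34 and −1.73. Msrb1, at 34 bases, had −0.44, and Selenoo, with the codon in the last exon, had 0.16. The 19 other selenoprotein genes gave a wider view, and 15 of them, with at least 50 UMIs over both libraries, could be placed. All 7 with the codon over 50 bases before the junction (Gpx1, Gpx3, Gpx4, Selenof, Selenom, Selenon and Selenot) were at least 1.5-fold lower in knockout cells, with ratios from −3.40 to −0.69. Of these, Selenon and Gpx3, which had the −3.40 from 47 knockout and 599 control UMIs, were under the floor of 20 CPM. Selenok, at 5 bases, had −0.45. The 7 with the codon in the last exon (Dio2, Txnrd1, Txnrd2, Txnrd3, Selenoi, Selenos and Sephs2) lay between −0.42 and 0.28, and 0 of them were at least 1.5-fold lower. Dio2, Txnrd2 and Txnrd3 were under the floor of 20 CPM. These ratios are over all kept cells, and single classes differed. Txnrd1 was at −0.73 (−0.98 to −0.48) in maturing neutrophil-like, 0.80 in dendritic cell-like and 1.53 in early erythroid-like cells. Early erythroid-like cells also had Txnrd2 at −0.64 and Sephs2 at 0.62, and dendritic cell-like cells had Selenoi at 0.99. Selenof, over 50 bases before the junction, was at −0.41 in early erythroid-like cells. The share over all genes was not computed for 50 UMIs alone. Distance did not order the genes beyond the split at 50 bases, since Selenot, at 470 bases, had −0.69 and Gpx1, at 105 bases, had −2.58. The place was taken from 1 annotated transcript per gene. Other annotated transcripts put Msrb1 at up to 66 bases and Selenop at as few as 26, on the other side of the 50 bases. Transcripts of the 19 other genes were not compared in this way. The 50 bases were chosen with these ratios known, so the split is a description of these 2 libraries and was not tested.

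**Figure D3:**
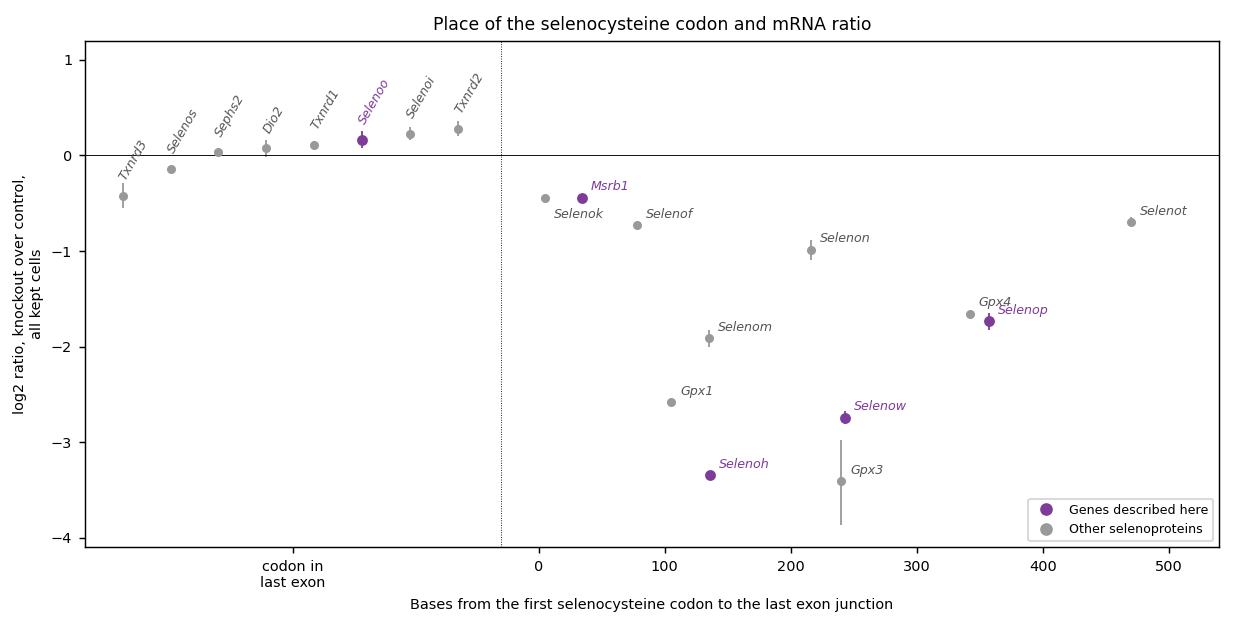
Log2 ratio of knockout over control over all kept cells (y axis) against the number of bases from the first selenocysteine codon to the last exon junction (x axis), for 20 selenoprotein genes with at least 50 UMIs. The place is that in 1 annotated transcript per gene. Lines are exact 95% counting intervals, and genes with the codon in the last exon are spread out at the left for legibility. Genes at the left lie between −0.42 and 0.28, and those over 50 bases lie at −0.69 or lower.

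Of the 19 other selenoproteins, 10 passed the floor, 5 were at least 1.5-fold lower in knockout cells, and 0 were at least 1.5-fold higher. These 5 were the glutathione peroxidases Gpx1 (252.9 CPM in knockout and 1508 in control cells, log2 ratio −2.58) and Gpx4 (126 and 397 CPM, −1.65), and Selenom, Selenof and Selenot of the endoplasmic reticulum, at −1.91, −0.73 and −0.69. The median of the list was −0.57. Among 9 genes of methionine oxidation and thioredoxin supply, 5 passed the floor. Of these 5, 0 were 1.5-fold apart in either direction, with a median of 0.11. Msrb3, on the same list but under the floor, was 1.60-fold higher in knockout cells (0.68, 0.45 to 0.91). It had 2.65 CPM in knockout and 1.66 CPM in control cells, from 367 and 276 UMIs. Thioredoxin (Txn1), the electron donor of the reductases, had 755 CPM in knockout and 668 CPM in control cells (0.18), and Mical1, an enzyme that oxidises methionines of actin, had 28.9 CPM in knockout and 22.9 CPM in control cells (0.34). Among 11 genes of selenium uptake and selenocysteine insertion, 7 passed the floor and 0 were 1.5-fold apart, with a median of 0.15. Lrp8, a receptor for Selenop, had 29.2 CPM in knockout and 21.3 CPM in control cells (0.45, 0.39 to 0.52), and Secisbp2, which binds the hairpin in selenoprotein mRNAs, had 33.4 CPM in knockout and 30.9 CPM in control cells (0.11).

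The sums hide how single cells differ, so each cell was thinned to 5000 UMIs and its UMIs of Selenow and Selenoh were added. This left out 1127 knockout and 277 control cells with fewer UMIs. Of the 5513 remaining knockout cells 18.7% (17.7 to 19.8) had at least 1 such UMI, against 83.4% (82.6 to 84.2) of 7769 control cells. At least 2 UMIs, the control median, were found in 2.21% of knockout cells (1.84 to 2.64) and 55.8% of control cells (54.6 to 56.9). The highest sum was 5 in a knockout cell and 10 in a control cell. Without thinning, 50.5% of knockout and 96.6% of control cells had at least 1 UMI of the pair. For Msrb1 the thinned shares were 35.0% of knockout and 45.1% of control cells, and for Msra 19.6% of knockout and 20.1% of control cells. RNA free in the suspension can add to such shares, and its amount was not estimated. Mpo, a granule enzyme gene of neutrophil progenitors, gave a UMI in 92.3% of T/NK/ILC-like knockout cells and 92.9% of control ones. Their median depths were 13806 and 10820.5 UMIs. The level of Mpo there differed, at 189 CPM from 73 UMIs in knockout and 1084 CPM from 669 UMIs in control cells. Whether this Mpo was free RNA was not tested, and a single UMI in a cell is not read as expression.

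**Figure D4:**
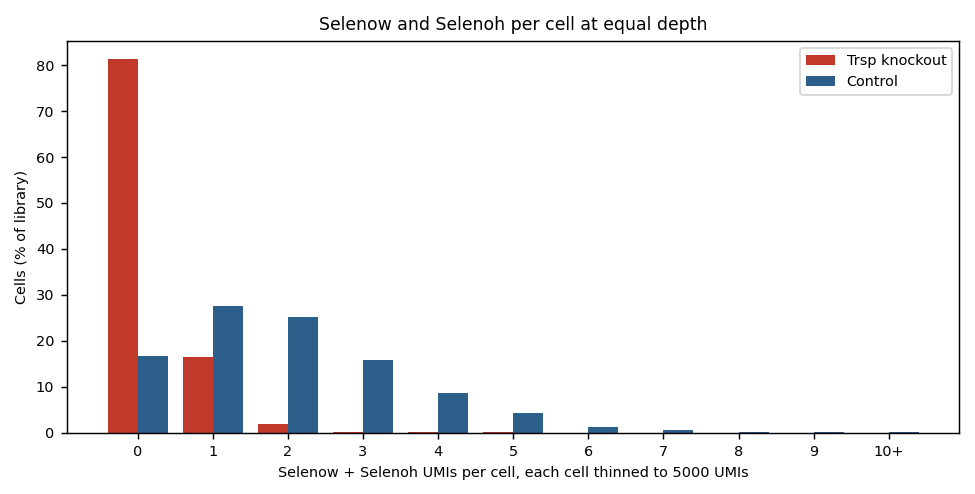
Share of cells (y axis, % of the library) by the summed UMIs of Selenow and Selenoh in a cell after thinning to 5000 UMIs (x axis), in 5513 knockout (red) and 7769 control (blue) cells. No such UMI was found in 81.3% of knockout and 16.6% of control cells.

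The B/plasma-like cells stood apart from the other classes. The class has 36 knockout and 65 control cells, under the 100 cells asked of a compared class. Its leading genes, Igkc, Jchain and other immunoglobulin genes, go with plasma cells, which a Lineage- sort should leave out. Selenow had 183 UMIs in its knockout cells (190 CPM, 164 to 220) and 304 in its control cells (189 CPM, 169 to 212), a log2 ratio of 0.01 (−0.26 to 0.28). Among the knockout classes this level was apart from the next, early erythroid-like cells at 32.9 CPM. At least 1 Selenow UMI was found in 34 of 36 knockout cells (94.4%, 81.3 to 99.3) and 63 of 65 control cells (96.9%, 89.3 to 99.6), with medians of 5 and 4 UMIs a cell. After thinning the shares were 57.1% of knockout (39.4 to 73.7) and 64.1% of control cells (51.1 to 75.7). Selenop, with 33 knockout and 44 control UMIs, was at 0.33 (−0.37 to 1.01). Selenoh, with 12 knockout and 97 control UMIs, was at −2.27 (−3.28 to −1.40) in the same cells, and Msrb1, with 35 and 88 UMIs, at −0.59 (−1.20 to −0.01). Other selenoproteins with a codon ahead of the last exon also passed the floor in this class. Of them, Gpx1 was at −1.54 (−1.85 to −1.24) and Gpx4 at −0.25 (−0.50 to 0.00). Selenok was at −0.19 (−0.40 to 0.02) and Selenom at −0.10 (−0.89 to 0.65), while Selenof was at 0.24 (−0.08 to 0.56) and Selenot at 0.19 (−0.32 to 0.69). Immunoglobulin genes gave 40.7% of the UMIs of its knockout cells and 48.1% of those of its control cells. Relative to the other UMIs, Selenow was at −0.18 (−0.46 to 0.09) and Selenoh at −2.47 (−3.47 to −1.60). Mpo had 805 CPM in knockout and 1014 CPM in control cells of this class, against 4493 and 4957 CPM over all kept cells. Whether RNA free in the suspension gave part of the Selenoh, Gpx1 or other counts of this class was not tested. T/NK/ILC-like cells, another lymphoid class, had 6 knockout and 115 control UMIs of Selenow, a log2 ratio of −3.59 (−5.06 to −2.42). The difference between these classes was not tested.

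The 3 genes most like each member over the 8 control classes, by Pearson's r among 6096 genes, were found for the 5 members past 20 CPM in the control library. They were Utrn, Aftph and 2410006H16Rik for Selenow, with Utrn at 0.99, and Pgls, Ilkap and Lsm5 for Selenoh, with Pgls at 0.98. For Selenop they were Mycbp2, Rsbn1l and Nfat5, with Mycbp2 at 0.98. For Msrb1 they were Cope, Sec61b and Ndufa3, with Cope at 0.99, and for Msra they were Nudt1, Serhl and Dnph1, with Nudt1 at 0.98. With 8 class values from 1 library, r over so many genes reaches such values readily, and it is given as a description.

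Some of the genes share their span with other annotated genes. Selenop overlaps Ccdc152 on the other strand over 439 bases, Selenoo overlaps Tubgcp6 on the other strand over 1984 bases, and Msra holds the antisense 9630015K15Rik. Ccdc152 had 4 knockout and 25 control UMIs, Tubgcp6 had 1751 knockout and 1769 control UMIs, and 9630015K15Rik had 0 in both. Gm28635, which covers the whole of Selenoh on the same strand, has no row under that symbol in the count tables. The sources used here do not say whether counting used the strand, so reads of such pairs may not be told apart.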

How the data were processed

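The authors deposited UMI counts per gene and cell barcode, made from 10x 3′ v3.1 libraries, per the labels' protocols, with Cell Ranger 6.1.2 and mm10, per the submitters' processing notes. Library groups are the genotype labels. UMIs remove PCR copies, and 3′ reads separate genes only by their transcript ends.

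The barcode filter asked for 500 genes or more and a mitochondrial share below 10%. Scrublet in scanpy 1.11.5 set a doublet threshold of 0.433 in the control library, used for both, and removed 66 knockout and 146 control cells. In the knockout library its own threshold marked 52 cells (0.775%). Both libraries were clustered together (2000 variable genes without selenoprotein, listed, mitochondrial, ribosomal protein and sex-linked genes, 30 principal components, 15 neighbours, Leiden resolution 1), and clusters were named from marker lists, with tie rules set after the clusters were seen. UMIs were summed per class. Sums have exact Poisson, shares exact binomial (Clopper-Pearson) and ratios exact conditional binomial intervals at 95%, which cover counting error only. The ratio function was tested on simulated counts. The genes named besides the 7 are the 3 most like each, and listed genes past the floor at least 1.5-fold apart. Txn1, Mical1, Msrb3, Lrp8 and Secisbp2, the split by codon place, the genes placed by it and the details of B/plasma-like cells were chosen after their values were seen. The 7 genes and all lists were chosen with earlier results of these data known.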

Additional observations from a re-analysis of the deposited data

Results flagged for a closer look

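Selenoo had counting intervals on opposite sides of 0 in different classes. Its log2 ratio of knockout over control was 0.51 in maturing neutrophil-like cells (80 knockout and 79 control UMIs) and −0.29 in MPP/LMPP-like cells (230 knockout and 246 control UMIs). The difference between the classes was not tested, and both values turned under an alternative given below.

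Msra likewise stood at 0.32 in maturing neutrophil-like cells (305 knockout and 345 control UMIs) and at −0.71 in dendritic cell-like cells (28 knockout and 53 control UMIs). This difference was not tested either.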

How the results depend on the processing

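Over all kept cells the direction of all 7 genes was the same under the 5 alternatives tried. A stricter barcode filter (at least 1000 genes, under 5% mitochondrial UMIs) gave log2 ratios of −2.65 for Selenow and −0.52 for Msrb1, and put Msrb1 at least 1.5-fold lower in 1 class. Median-of-ratios size factors gave −2.83 for Selenow, −3.43 for Selenoh, −0.52 for Msrb1, −0.17 for Msra and −0.19 for Msrb2. A mean over cells gave −2.83 for Selenow, −3.28 for Selenoh, −1.86 for Selenop (also the median of the 5 selenoprotein genes), 0.27 for Selenoo, −0.41 for Msrb1 and −0.035 for Msra. At a floor of 100 CPM in 1 library, 1 of the 7 genes was at least 1.5-fold lower, since fewer genes are then counted. With classes from a marker gate on single cells, Msra was at least 1.5-fold lower in 0 classes and Msrb2 in 2. Of 343 class ratios under alternatives, 315 stayed within their counting interval and 3 turned. These were Selenoo in maturing neutrophil-like cells under the stricter filter (−0.12), Selenoo in MPP/LMPP-like cells at Leiden resolution 2 (0.081) and Msra in maturing neutrophil-like cells under the marker gate (−0.012). The cause was not tested. In maturing neutrophil-like cells Selenow was at −1.91 under the marker gate and −2.72 under the stricter filter. In B/plasma-like cells the stricter filter gave 0.00 for Selenow, from 32 knockout and 56 control cells. No paired analysis was possible because each genotype has 1 library. Low counts limit Selenoo, Msrb2 and the small classes.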

Other observations

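Selenow, Selenoh and Selenop were also lower in knockout than in control barcodes among those that failed the filter. In barcodes with at least 500 genes but 10% or more mitochondrial UMIs (1164 knockout and 1731 control), the log2 ratio of knockout over control was −3.14 for Selenow (43 knockout and 502 control UMIs), −2.79 for Selenoh (120 and 1099 UMIs) and −2.18 for Selenop (28 and 168 UMIs). Selenow was below Selenoh there, unlike in kept cells, but their intervals overlapped (−3.63 to −2.69 and −3.07 to −2.52). Msrb1 was at −0.30, Selenoo at 0.32 (−0.09 to 0.73), Msra at 0.06 (−0.19 to 0.32) and Msrb2 at −0.21 (−0.76 to 0.33). Barcodes with under 500 genes (3686 knockout and 4449 control) gave −3.10 for Selenow, −3.11 for Selenoh, −1.48 for Selenop and −0.59 for Msrb1, with Selenoo at −1.20 from 10 knockout and 26 control UMIs, Msra at −0.54 (−1.10 to 0.02) and Msrb2 at 0.40 (−0.82 to 1.65).

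The 4 unnamed clusters went the same way for Selenow and Selenoh. In the cluster of few UMIs led by Rpgrip1, Selenow was at −2.11 (74 knockout and 31 control UMIs), Selenoh at −3.33 (150 and 147 UMIs) and Msrb1 at −0.04 (−0.42 to 0.37). In the other 3, Selenow lay between −3.04 and −2.89 and Selenoh between −3.45 and −3.27.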
